A study of Bos taurus with 32 samples.

Results

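The 60 genes described here had a lower mean level in calves from embryos produced in vitro (IVP) than in calves from embryos produced in vivo (labelled MOET) in the hypothalamus, pituitary, testicle and adrenal alike, on CPM, while after a rescaling described below 42 of the 60 did. They were selected on these same values. CPM is a gene's counts for every 1000000 counts of its library. Of the 27607 genes in the count table, 2 were set aside. Of the rest, 9275 averaged at least 2 CPM in every tissue and origin, with a highest tissue mean under 5 times the lowest. For each of those 9275 ranked genes the log2 ratio of the mean IVP CPM to the mean MOET CPM was taken in each tissue. The 60 with the lowest value for the largest of the 4 ratios were chosen. Every statement below on the level of these genes in IVP against MOET is therefore a description and carries no test.

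The samples came from 8 male Holstein calves, 4 per origin, and each calf gave 1 library from each of the 4 tissues (32 libraries). IVP embryos were made in the laboratory, MOET embryos came from superstimulated and inseminated donors, and both kinds developed to term in synchronised recipients before the calves were reared under similar conditions. IVP calves were 98 to 103 days old with birth weights of 36 to 41 kg, and MOET calves were 102 to 104 days old with birth weights of 33 to 39 kg, apart from the age of MOET calf 3213, which is labelled 144 days. The sources used here do not give the parents of the calves.

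The hypothalamus, pituitary and testicle form the hormonal axis that drives puberty and sperm production, in which hypothalamic releasing hormone acts on pituitary gonadotropes and these act on the testis. The adrenal cortex answers to the pituitary in parallel and makes glucocorticoids. Embryo culture in vitro spans the stages at which the genome is reprogrammed and DNA methylation is rewritten, and its traces in later life have been sought in many tissues of the offspring. Genes expressed at similar levels across such unlike tissues are mostly those with duties common to many cells.

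The gene identifiers were not paired with symbols in the sources used here, so the members' functions, sequences and the markers of each tissue were not analysed here. The first and second members are ENSBTAG00000000356 and ENSBTAG00000002655, and the others are called by their rank. In bulk tissue, fewer cells of a type and less RNA per cell cannot be told apart.

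Library totals ran from 17357283 to 23380330 counts. A member had between 33 and 6438 counts in a library, with a median of 389.5. The 100 most counted genes took 25.7 to 29.3% of the counts in the IVP hypothalamus against 30.6 to 34.1% in MOET, and 29.9 to 30.8% in the IVP adrenal against 24.9 to 27.4% in MOET. These shares overlapped between origins in the pituitary (38.1 to 45.2% against 38.1 to 50.3%) and the testicle (25.2 to 31.0% against 23.8 to 29.0%). Their part in the ratios below was not tested beyond the rescaling given with them.

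The libraries of MOET calf 3213 stood apart before any gene was chosen. In each tissue its counts were compared with the mean of the other 3 MOET libraries over genes with at least 20 expected counts. The squared deviation per gene, in units of counting error, was 0.680 for the hypothalamus, 1.11 for the pituitary, 0.701 for the testicle and 2.95 for the adrenal, where counting error alone gives about 1. The other 7 calves had 6.56 to 399 by the same measure. In the same order 99.2%, 99.3%, 98.9% and 95.4% of genes in calf 3213 lay between the lowest and highest of the other MOET libraries, against 13.3 to 95.7% for the other calves in their own groups. In 3 tissues its libraries thus matched the average of the others within or near counting error, and what made them so was not tested. Calf 3213 is not counted as a separate replicate in the standard errors of the origin ratios or the SDs between calves, which are over 3 MOET calves. The mean ratios and the main edgeR, DESeq2 and limma fits of origin, tissue and birth weight did include it. The test between calves of 1 origin left it out. Counts without calf 3213 are given beside the edgeR and limma fits. Leaving calf 3213 out returned the same 60 genes, which is no check on the choice because its values lay near the mean of the other MOET libraries.

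The choice reached genes with small ratios. The largest of the 4 log2 ratios was -0.51 at rank 1, -0.50 at rank 2, -0.22 at rank 12, -0.19 at rank 20 and -0.17 at rank 30. It was -0.1302 at rank 59 and -0.1297 at rank 60, just inside the limit, and -0.1234 and -0.1212 for the genes ranked 61 and 62, just outside. Only 5 members were below -0.3 in every tissue. In all, 448 of the ranked genes (4.83%) had a ratio below 0 in all 4 tissues and 259 (2.79%) had one above 0 in all 4. From the high end, the smallest of the 4 ratios was 0.66 for the first gene and 0.06 for the gene ranked 60.

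**Figure D1:**
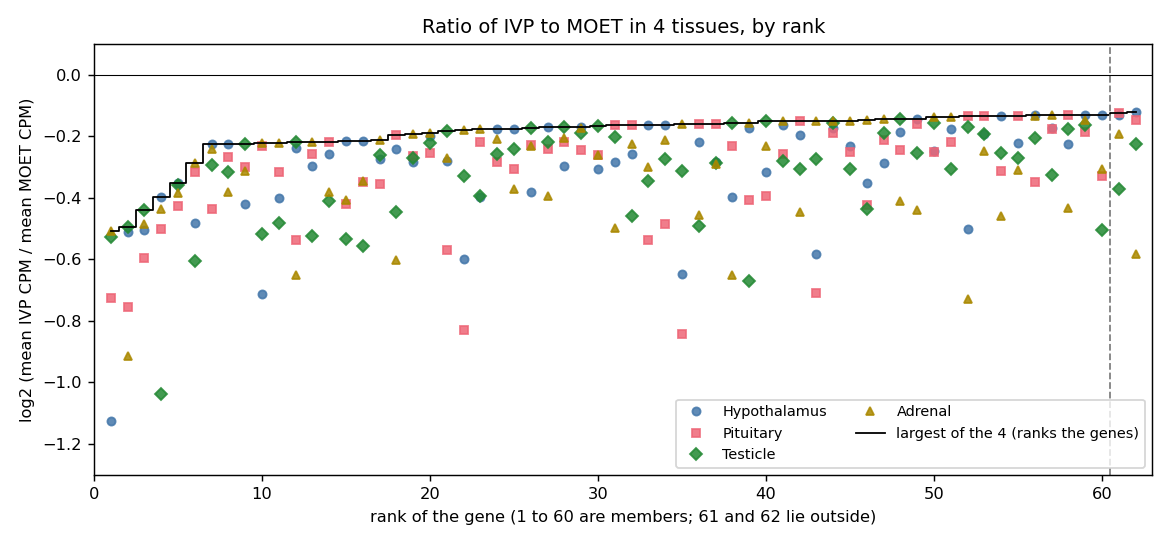
Log2 ratio of mean IVP to mean MOET CPM (vertical axis) for the genes ranked 1 to 62 (horizontal axis), with 1 symbol per tissue and a black line through the largest ratio of each gene; the dashed line separates the 60 members from the genes ranked 61 and 62. The line climbs from -0.51 to -0.22 by rank 12 and is nearly flat afterwards, while single tissues reach -1.12; after TMM rescaling 42 of the 60 members stay below 0 in the adrenal.

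Typical members sat at 82 to 85% of the MOET level. The median over the 60 was 84.5% for the hypothalamus (log2 ratio -0.24, range -1.12 to -0.13), 83.5% for the pituitary (-0.26, -0.84 to -0.13), 82.5% for the testicle (-0.28, -1.04 to -0.14) and 83.9% for the adrenal (-0.25, -0.91 to -0.13). Over all 240 ratios the median was -0.26 and the quartiles were -0.40 and -0.19. Ratios of -0.5 or lower were held by 8 members for the hypothalamus, 9 each for pituitary and testicle, and 6 for the adrenal. The median standard error of a member's log2 ratio, over 4 IVP and 3 MOET calves, was 0.15, 0.17, 0.15 and 0.12 in the same order.

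The tissues did not start from the same baseline. The median log2 ratio over the 9275 ranked genes was 0.15 for hypothalamus, 0.06 for pituitary, -0.06 for testicle and -0.15 for adrenal, which leaves the members' medians at -0.39, -0.32, -0.22 and -0.11 relative to it. All 60 members lay below that median in the hypothalamus, pituitary and testicle, and 55 did in the adrenal. Scaling the libraries by TMM (trimmed mean of M values, which centres the bulk of the genes) moved the ratios by -0.16, -0.06, 0.12 and 0.19 in that order. After it, all 60 members were still below 0 in the first 3 tissues but 42 were in the adrenal, where the other 18 were at or above 0. The members' medians were then -0.42, -0.31, -0.16 and -0.06. The first 12 members were below 0 in all 4 tissues under both scalings. Choosing anew from TMM-scaled values returned 21 of the 60.

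The tissue that set a member's rank, the one with the ratio nearest 0, was the adrenal for 21 members, the hypothalamus for 17, and the pituitary and the testicle for 11 each. The tissue with the lowest ratio was the pituitary for 18, the adrenal for 17, the testicle for 16 and the hypothalamus for 9. These counts are on CPM and depend on the scaling. After TMM rescaling the members' median ratio was lowest in the hypothalamus (-0.42) and nearest 0 in the adrenal (-0.06). It was -0.31 in the pituitary and -0.16 in the testicle. Across the 60 genes, which share their libraries, Spearman's rho between tissues ran from -0.02 (pituitary and adrenal) to 0.33 (pituitary and testicle).

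ENSBTAG00000000356, ranked 1, separated the origins in every tissue on CPM, but after TMM rescaling in the hypothalamus and pituitary only. In the hypothalamus the IVP calves 3208, 3209, 5833 and 5841 had 17.97, 33.3, 20.2 and 20.8 CPM, and the MOET calves 3217, 3218 and 5932 had 56.9, 44.1 and 50.4, with 49.9 in the library of calf 3213. The mean was 23.1 ± 6.92 CPM in IVP (SD, n = 4) and 50.5 ± 6.42 in MOET (SD, n = 3). The log2 ratio was -1.12, or -1.13 without calf 3213, with a standard error of 0.22. It was the lowest of the members' 240 ratios.

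In the pituitary its IVP values were 10.5, 15.7, 9.29 and 11.4 CPM against 19.6, 16.4 and 22.3 in MOET and 19.3 in calf 3213, a log2 ratio of -0.73 (SE 0.20). In the testicle the IVP values of 14.3, 20.4, 17.5 and 16.4 CPM stood against 24.7, 21.4 and 27.95, and 24.97 in calf 3213 (log2 ratio -0.53, SE 0.15). In the adrenal they were 20.1, 27.7, 23.5 and 21.7 CPM against 32.3, 27.9 and 38.7, and 33.1 in calf 3213 (log2 ratio -0.51, SE 0.17). On CPM the groups did not overlap, with a gap of 27.7 against 27.9 in the adrenal. After TMM rescaling calf 3209 rose to 24.9 in the testicle, above MOET calves 3213, 3217 and 3218 (23.9, 22.7 and 19.9), and to 30.96 in the adrenal, above calf 3218 (25.9). The log2 ratios were then -1.27, -0.78, -0.40 and -0.31 from hypothalamus to adrenal. On CPM calf 3209 was the highest IVP calf and calf 3218 the lowest MOET calf in each tissue. After TMM rescaling the lowest MOET calf in the hypothalamus was 5932 (49.5, against 51.2 in calf 3218).

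ENSBTAG00000002655, ranked 2, was low in 3 of the 4 IVP calves. In the hypothalamus calves 3208, 5833 and 5841 had 4.98, 5.20 and 4.57 CPM, while calf 3209 had 9.50, above every MOET library (8.33, 8.42 and 9.34, with 8.48 in calf 3213). In the pituitary the same 3 calves had 7.68, 8.56 and 7.91 CPM and calf 3209 had 14.9, inside the MOET values of 15.8, 14.8 and 19.1, with 16.3 in calf 3213. The origins overlapped in these tissues through calf 3209 alone, and in the pituitary they did not overlap after TMM rescaling (14.5 in calf 3209 against at least 16.4 in MOET).

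In the testicle of the same gene the IVP values were 10.04, 13.6, 9.999 and 8.40 CPM, with calf 3209 again the highest, and the MOET values were 15.5, 14.2 and 14.7, with 14.9 in calf 3213. In the adrenal the IVP values of 6.16, 9.50, 7.51 and 6.62 CPM lay well below 13.1, 13.4 and 15.6, and 14.1 in calf 3213. On CPM neither tissue overlapped. After TMM rescaling the adrenal still did not, but in the testicle calf 3209, at 16.6, was above every MOET library. The log2 ratios were -0.51 (SE 0.23), -0.76 (SE 0.24), -0.50 (SE 0.14) and -0.91 (SE 0.15) from hypothalamus to adrenal. Without calf 3209 the first 2 became -0.81 and -1.03.

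The member ranked 3 split the calves along another line than origin. In the hypothalamus IVP calves 3208 and 3209 had 1.86 and 3.20 CPM and MOET calf 5932 had 3.32, whereas IVP calves 5833 and 5841 had 12.6 and 9.57 and MOET calves 3217 and 3218 had 12.1 and 15.02. In the pituitary the low calves had 3.97, 4.33 and 7.51 CPM and the high ones 19.8, 20.5, 24.2 and 26.4. The same 3 calves were the lowest of the 7 in all 4 tissues.

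In the testicle the low calves of that member had 6.77, 12.4 and 17.3 CPM and the high ones 35.6, 33.5, 36.8 and 39.1. In the adrenal the low calves had 13.3, 16.0 and 17.5 CPM, calf 5833 had 23.4 and the other high calves had 44.8, 44.9 and 42.2. Calf 3213 lay in between, at 8.07, 15.5, 26.6 and 31.7 CPM from hypothalamus to adrenal. The log2 ratios, from -0.44 to -0.60, had standard errors of 0.57 to 0.86 and no group was apart from the other in any tissue.

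The member ranked 6 was the other gene with no overlap in any tissue on CPM, though it overlapped in the testicle and adrenal after TMM rescaling. Its IVP values were 12.2 to 16.2 CPM against 19.1 to 22.0 in the MOET hypothalamus and 33.4 to 37.5 against 40.7 to 47.6 in the pituitary. In the testicle they were 6.86 to 9.66 against 12.3 to 14.9 CPM, and in the adrenal 16.4 to 20.2 against 21.0 to 22.9. The log2 ratios were -0.48 (SE 0.10), -0.32 (SE 0.07), -0.61 (SE 0.14) and -0.29 (SE 0.07). After TMM rescaling they were -0.65, -0.38, -0.49 and -0.09. Calf 3209 then had 11.5 in the testicle against 11.3 in MOET calf 3217, and 22.6 in the adrenal, above all 4 MOET libraries (19.03 to 22.4).

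**Figure D2:**
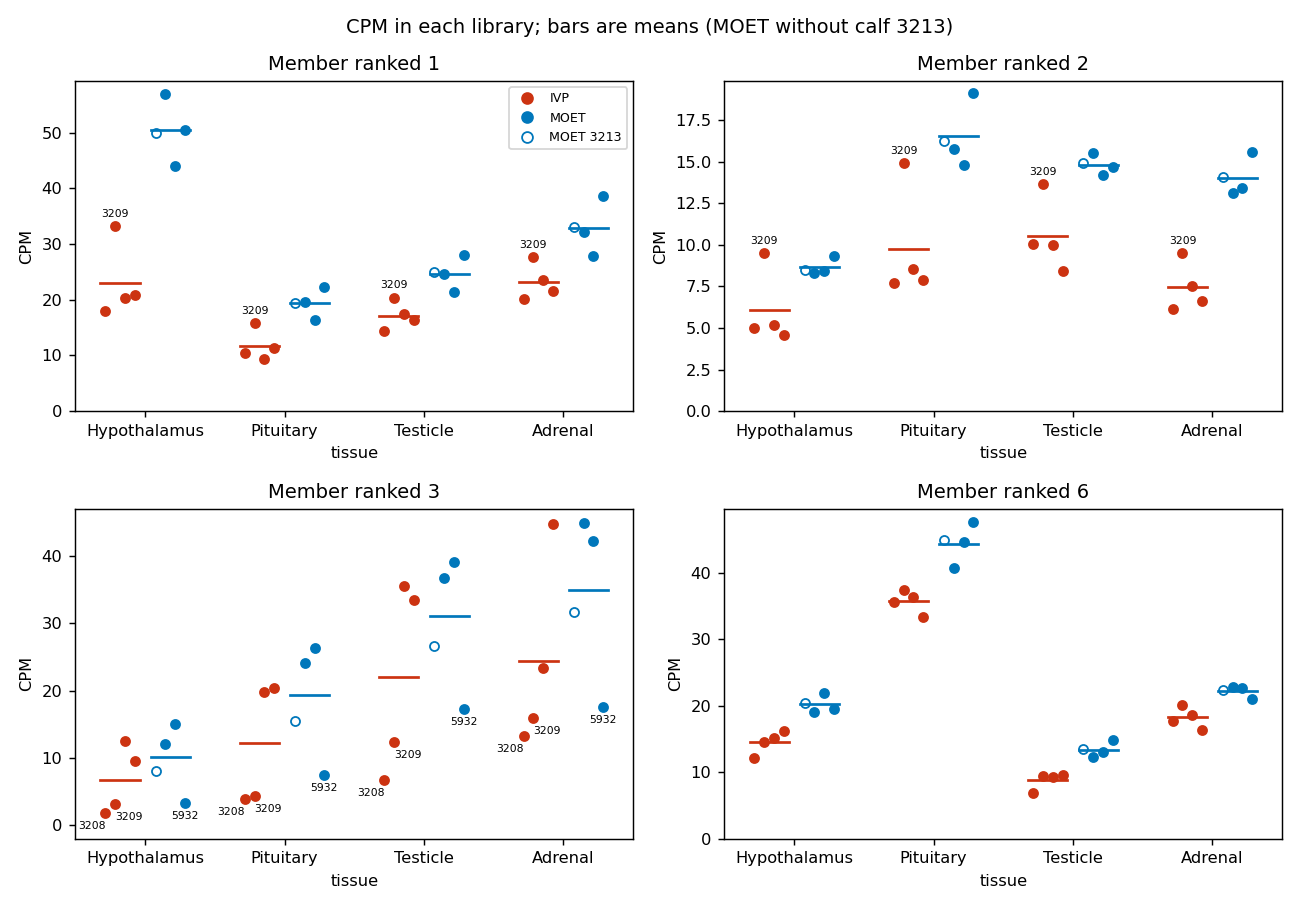
CPM (vertical axis) of the members ranked 1, 2, 3 and 6 in each library, by tissue, with IVP in red, MOET in blue, an open symbol for MOET calf 3213 and bars at the means (MOET over 3 calves). Ranks 1 and 6 do not overlap in any tissue on this scale (after TMM rescaling they do in the testicle and adrenal), rank 2 has IVP calf 3209 at the MOET level in the hypothalamus and pituitary, and in rank 3 the calves 3208, 3209 and 5932 are low in every tissue.

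Ranks 4 and 12 had their lowest ratios in 1 tissue. For rank 4 this was the testicle, with IVP values of 3.31, 4.82, 3.18 and 2.62 CPM against 6.37, 7.55 and 7.49, and 7.17 in calf 3213 (log2 ratio -1.04, SE 0.18). After TMM rescaling the lowest MOET calf there, at 5.86, was level with calf 3209 at 5.88. In the pituitary the same gene overlapped between origins, and calf 5932, at 5.93 CPM, was the only MOET calf of the 3 above the IVP maximum of 3.19. For rank 12 it was the adrenal on CPM, with IVP values of 47.0 to 67.0 CPM against 88.3 to 93.5. After TMM rescaling its log2 ratio was lower in the pituitary (-0.56) than in the adrenal (-0.47). In the pituitary of rank 12, calf 5932 had 59.8 CPM, whereas calves 3217 and 3218, at 27.9 and 28.4, lay inside the IVP values of 23.5 to 30.4.

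Counted over the list, all 4 IVP libraries lay below all 4 MOET libraries for 16 members (hypothalamus), 14 (pituitary), 20 (testicle) and 25 (adrenal). Calf 3213 changed none of these counts, but it hardly could, because nearly all its values lay between those of the other MOET libraries. Among the ranked genes 1.91%, 3.75%, 5.09% and 37.5% did so in the same order. The members were chosen for low ratios, so nothing is read from the difference, but in the adrenal the members' share is close to the share of all ranked genes. No tissue was apart for 20 members, 1 tissue for 17, 2 for 13, 3 for 8 and all 4 for 2 (ranks 1 and 6). Averaged over its tissues, every IVP calf lay below every MOET calf for 45 members, against 3.6% of ranked genes. Leaving out calf 3213 also gave 45, with the same limit. These counts depend on the scaling. On TMM-scaled totals they were 32, 31, 5 and 8 members from hypothalamus to adrenal (4.78%, 12.7%, 1.76% and 20% of ranked genes), no member was apart in all 4 tissues, and the calf means were apart for 33 (3.7%).

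The edgeR test of origin in each tissue called no member lower in the hypothalamus or the testicle, 28 in the pituitary and 8 in the adrenal at an adjusted p under 0.05. The shares of all tested genes called lower were 0.00622%, 7.78%, 0% and 18.5% from hypothalamus to adrenal. Members lower at an unadjusted p under 0.05 numbered 49, 41, 10 and 11 in that order, and the ranked genes so called were 12.4%, 17.9%, 1.84% and 25.1%. DESeq2 called 28 members in the hypothalamus, where it called 4.3% of all tested genes lower, and 0 in the testicle, where it called 0.93%. The counts and shares above are from fits that include calf 3213. Without calf 3213 the edgeR calls were 0, 9, 0 and 4 members, and the genes called lower were 0, 217, 0 and 1501. With it the genes called lower were 1, 1230, 0 and 2863, so the background fell as well. These counts come from the contrast that chose the genes and are given only for comparison.

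Libraries of the IVP calves were low over the list as a whole. The median log2 difference of the 60 members from the mean of MOET calves 3217, 3218 and 5932 was -0.33, -0.22, -0.19 and -0.25 in the hypothalamus of calves 3208, 3209, 5833 and 5841, where the ranked genes had 0.10, 0.09, 0.21 and 0.16. In the pituitary it was -0.31, -0.23, -0.31 and -0.18, with 0.03, 0.08, -0.0020 and 0.18 for the ranked genes. MOET calf 5932 stood above the other MOET calves there, at 0.25 for the members and 0.18 for the ranked genes.

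In the testicle the members' medians in the 4 IVP calves were -0.37, -0.29, -0.16 and -0.34, and calf 3209 was the only one whose ranked genes were far from 0 (-0.23). In the adrenal they were -0.29, -0.24, -0.22 and -0.36, beside -0.10, -0.21, -0.12 and -0.15 for the ranked genes. In the testicle and adrenal of calf 3209 the ranked genes thus lay nearly as low as the members.

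**Figure D3:**
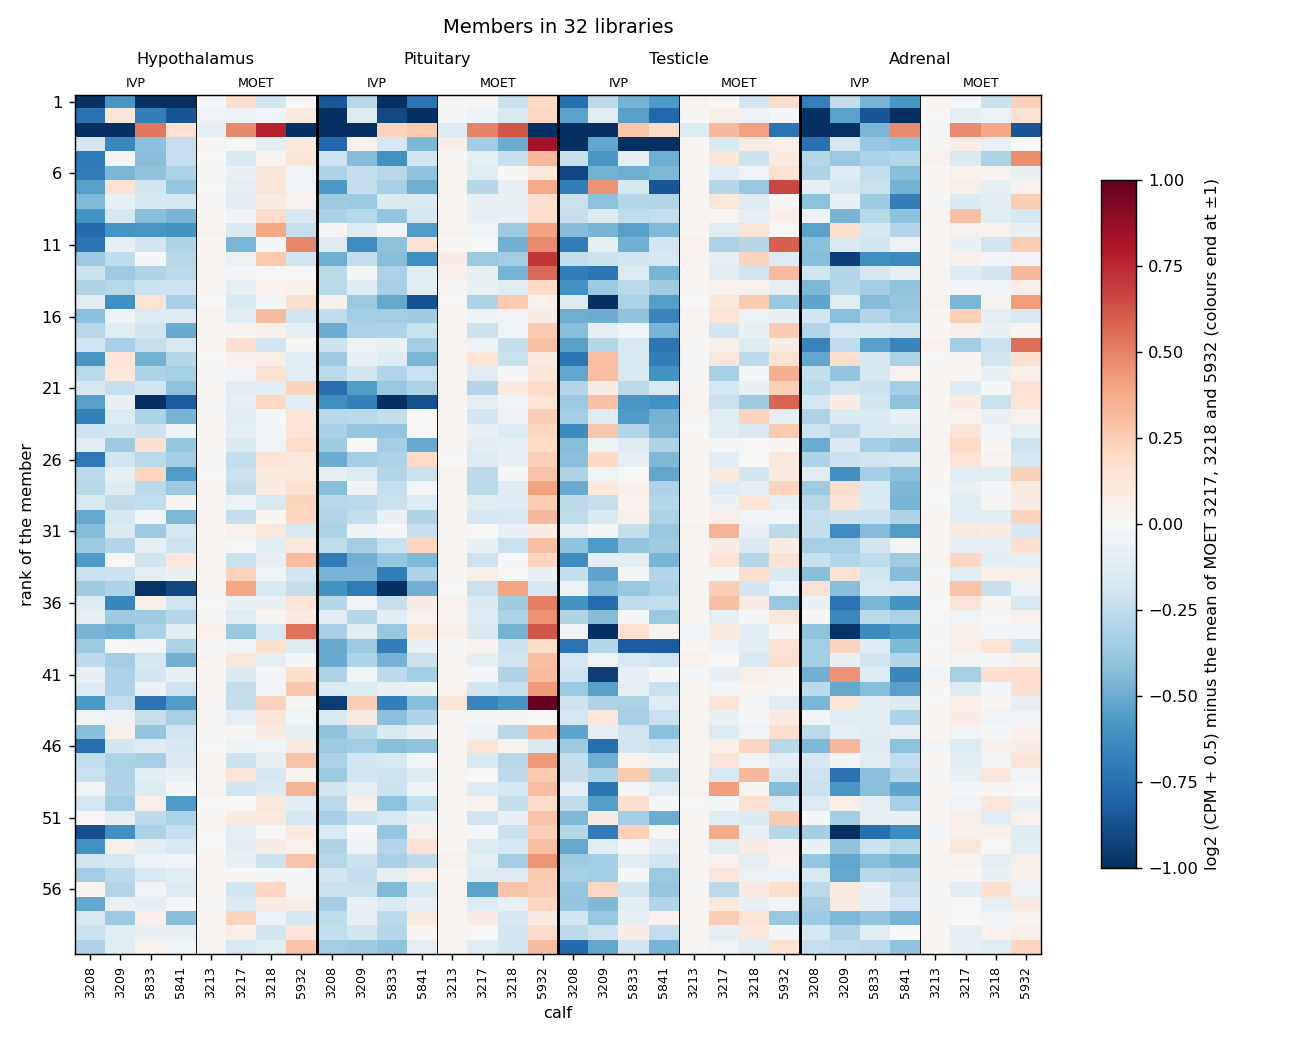
Log2 (CPM + 0.5) of each member (rows, by rank) in each of 32 libraries (columns, by tissue, origin and calf) minus the mean of MOET calves 3217, 3218 and 5932 in that tissue; blue is lower and red higher, with colours ending at -1 and 1. The IVP columns are mostly blue, the columns of calf 3213 are nearly white, calf 5932 is mostly red in the pituitary, and row 3 alternates between calves.

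**Figure D4:**
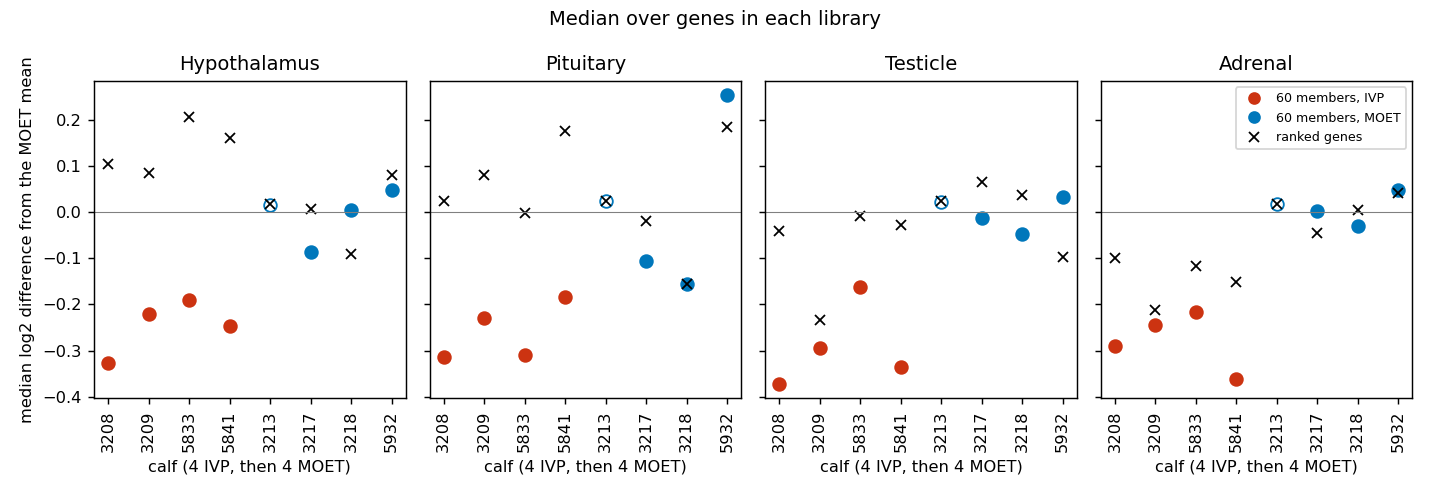
Median log2 difference from the mean of MOET calves 3217, 3218 and 5932 (vertical axis) over the 60 members (circles, open for calf 3213) and over the 9275 ranked genes (crosses) in each library. The members' medians lie between -0.37 and -0.16 in every IVP library, while the crosses lie above 0 in the IVP hypothalamus and below 0 in the IVP adrenal.

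The calves behaved unevenly. Averaged over tissues, calf 3209 was the highest IVP calf for 29 members, calf 5833 for 18, calf 5841 for 9 and calf 3208 for 4, whereas among the ranked genes calf 3208 was the highest for 29.5%, calf 3209 for 32.7%, calf 5833 for 12.2% and calf 5841 for 25.5%. Of the 3 independent MOET calves, 5932 was the highest for 43 members (64.9% of ranked genes), 3217 for 9 (27.3%) and 3218 for 8 (7.81%). Calf 3209 lay below every MOET library for 36, 30, 41 and 41 members from hypothalamus to adrenal (8.61%, 16.1%, 54.8% and 56.8% of ranked genes). Calf 3208 did so for 49, 46, 53 and 49 members (26.5%, 21.7%, 31.3% and 50.8%). All these counts are on CPM, and the order of calves depends on the scaling. Left out of the choice as described below, calf 3209 had a testicle median against MOET of -0.115 on CPM. After TMM rescaling it was 0.06, while calves 3208, 5833 and 5841 stayed below 0 (-0.25, -0.09 and -0.23). The ranked genes of calf 5932 had a median against its own origin of 0.09 on CPM and -0.01 after TMM rescaling.

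Whether a member differed between calves of the same origin in a way that its tissues shared was tested with edgeR. The rule used the means of each origin and not the deviations within it, but a gene whose calves differ alike in all tissues gets ratios of the same sign more easily, so the members' share called is not independent of the choice and nothing is read from it. The fit was over 7 calves, without 3213. It called 3 of the 60 members (ranks 1, 2 and 3) and 34 of the 9275 ranked genes (0.367%). The adjusted p was 0.0158 for rank 1, 0.00101 for rank 2 and 6.3e-05 for rank 3. For ranks 1 and 2 the calf that stood out was 3209, and for rank 3 the difference lay between 3208 and 3209 on the IVP side and 5932 on the MOET side against the rest. With calf 3213 the same number of members, 3, was called. Without calf 3209 it was 1 member (14 ranked genes), and without any other calf 2 or 3. Without the hypothalamus, the pituitary or the testicle 1 member was called, and without the adrenal 2.

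The correlation of a gene's deviations between tissues over the 7 calves, averaged over the 6 tissue pairs, carries the same limit and is given as a description. It was 0.82, 0.89 and 0.92 for ranks 1, 2 and 3, over 0.5 for 12 members (20%, against 3.83% of ranked genes), and had a median of 0.15 over the members and 0.13 over the ranked genes. The lowest value was -0.23.

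The SD between calves of one origin on the log2 scale, without calf 3213, had a median over the members of 0.187 (hypothalamus), 0.204 (pituitary), 0.209 (testicle) and 0.163 (adrenal), beside 0.2004, 0.159, 0.235 and 0.154 over the ranked genes. Over the 28 libraries without calf 3213, the correlation of deviations from the group mean had a median of 0.22 over the 1770 pairs of members and 0.19 over pairs of ranked genes. It was over 0.5 for 14.6% of member pairs and 30.1% of ranked pairs, and under -0.5 for 1.02% and 14%. These SDs and correlations, like the correlations between tissues above, are on CPM without TMM rescaling. On that scale a shift of a whole library enters the deviations of all its genes. Nothing is therefore read from the differences between members and ranked genes.

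Because the ratios chose the genes, the rule was applied again with 1 calf left out, and the left-out calf was placed between the origin means over the 60 genes then chosen. With calf 3213 out of every step, 1069 of 1680 values (63.6%) lay nearer the calf's own origin. With calf 3213 in, it was 1356 of 1920 (70.6%), and every one of calf 3213's 240 values was nearer MOET, whose mean its libraries match. The share for each calf without 3213 was 74.6% for 3208, 72.1% for 5833, 67.9% for 5841, 46.2% for 3209, 68.3% for 5932, 59.2% for 3217 and 57.1% for 3218. Calf 3209 was thus nearer MOET for the larger share of its values. No such share over the ranked genes is given here for comparison. The values of a calf are many genes in the same libraries and are not independent. Nothing is therefore read from these shares about whether the list would recur in other calves.

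The median of a left-out IVP calf against the MOET mean was -0.27 for calf 3208, -0.24 for 5841, -0.21 for 5833 and -0.14 for 3209. Left-out MOET calves lay above the IVP mean by 0.19, 0.20 and 0.23 (3217, 3218 and 5932). The ranked genes of the same calves had medians of -0.04 to 0.06. The means of the remaining calves were themselves used in choosing, so these distances are descriptions. Of the 60 members, 16 were chosen in all 8 rounds that left out 1 calf, among them 8 of the first 12. Leaving out calf 3209 returned the fewest, 36.

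The level of the members between tissues was not used by the rule beyond its limit of 5-fold. Each tissue was tested against the mean of the other 3 in edgeR with the calf as a block. Many members were low in the pituitary and high in the adrenal. In the pituitary 40 members were lower (41.1% of ranked genes were called lower) and 11 were higher (36.1%). In the adrenal 39 were higher (45% of ranked genes) and 11 lower (32.9%).

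In the testicle 34 members were lower (35.9% of ranked genes) and 17 higher (37.6%), and in the hypothalamus 25 were higher (32.8%) and 22 lower (43.5%). The median log2 difference of the members was 0.41 in the adrenal, 0.07 in the hypothalamus, -0.35 in the testicle and -0.38 in the pituitary, where the ranked genes had 0.09, -0.10, 0.01 and -0.04. Without calf 3213 each of these counts moved by at most 2.

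The tissue with the highest mean CPM was the adrenal for 29 members, the hypothalamus for 17, the testicle for 8 and the pituitary for 6. Among ranked genes these shares were 33.3%, 19.3%, 29.8% and 17.6%. The lowest was the pituitary for 31 members (32.3% of ranked genes), the hypothalamus for 12 (34.9%), the testicle for 11 (16.4%) and the adrenal for 6 (16.3%). The fold between the highest and lowest tissue of a member had a median of 2.83 and ran from 1.26 to 4.87, with a median of 2.14 for ranked genes.

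Single members reached a log2 difference of 2 between tissues. Rank 18 was highest in the hypothalamus, at a mean of 34.03 CPM against 8.95 for pituitary, 7.35 for testicle and 11.1 for adrenal (log2 difference 2.03, SE 0.07, adjusted p 1.19e-18), and rank 58 likewise (1.84, SE 0.05). Rank 3 was lowest there (-1.46, SE 0.16), followed by rank 30 (-0.99, SE 0.07). In the pituitary ranks 6 and 19 were the most raised (1.47, SE 0.08, and 1.28, SE 0.09) and ranks 23 and 13 the most lowered (-1.52, SE 0.09, and -1.38, SE 0.09).

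In the testicle ranks 5 and 30 were the most raised (1.54, SE 0.09, and 1.53, SE 0.06) and ranks 41 and 19 the most lowered (-1.94, SE 0.12, and -1.76, SE 0.10). In the adrenal ranks 17 and 20 were raised (1.46, SE 0.08, and 1.44, SE 0.10) and ranks 31 and 28 lowered (-1.246, SE 0.09, and -1.01, SE 0.09). ENSBTAG00000000356 was higher in the hypothalamus (log2 difference 0.84, SE 0.11, adjusted p 1.58e-07) and lower in the pituitary (-0.74, SE 0.12, adjusted p 4.37e-06). ENSBTAG00000002655 was lower in the hypothalamus (-0.63, SE 0.07) and higher in the pituitary (0.48, SE 0.07), and its adrenal level (-0.09, SE 0.07) did not pass (adjusted p 0.235).

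**Figure D5:**
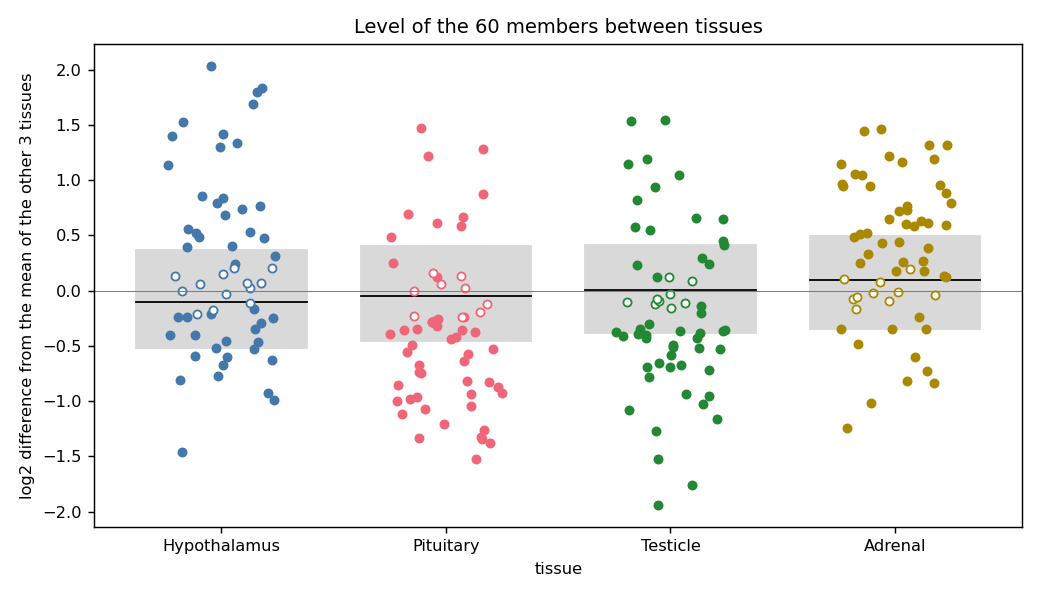
Log2 difference of each of the 60 members between a tissue and the mean of the other 3 (vertical axis), by tissue; filled points passed the edgeR test at an adjusted p under 0.05, open points did not, grey boxes span the quartiles of the 9275 ranked genes and black lines are their medians. Members lie mostly below 0 in the pituitary and testicle and mostly above 0 in the adrenal.

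Birth weight, which also was not used by the rule, was tested with limma on each calf's mean over tissues with origin in the model. No gene of 18242 passed (0%), and 479 had an unadjusted p under 0.05. Among the members 3 did. These were rank 35 (a slope of -0.057 log2 per kg, SE 0.020), rank 38 (0.049, SE 0.018) and rank 44 (-0.040, SE 0.016). Without calf 3213 the slopes of these 3 were -0.063 (SE 0.023), 0.053 (SE 0.020) and -0.045 (SE 0.019) log2 per kg. The smallest adjusted p of a member from limma was 0.973 over 8 calves and 0.981 over the 7 without calf 3213, so that no relation with birth weight was detectable in either fit.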

How the data were processed

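Gene counts of 32 bovine libraries were used as deposited. Per the labels' protocols the libraries were unstranded, poly(A)-selected and sequenced as paired reads of 100 bases, and reads were filtered with SOAPnuke. The submitters' processing notes name STAR 2.7, HTSeq and the build bosTau9. Without strand, reads of overlapping genes cannot be told apart, and close paralogs are uncertain. The values are raw counts by the authors. No row lacked a gene, and no column of another series was present.

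CPM was computed on column totals. The members and lists were chosen with earlier results of these data known. Only the first 2 members are named by identifier, because 0 identifiers matched a symbol. Gene lists and marker lists that had been drawn up could not be applied for that reason. Members printed by library come from the first 12, and in other tests the 2 most extreme per tissue and direction and the 3 smallest p-values are given.

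Tests used edgeR 4.0.16 (quasi-likelihood, TMM, filterByExpr with a minimum count of 10, Benjamini-Hochberg over all genes tested), limma 3.58.1 for birth weight and DESeq2 1.42.0 as an alternative, in R 4.3.3. The edgeR and limma tests, but not DESeq2, were also run on simulated data. Those data had independent libraries, the same spread for every gene and origin changes larger than a typical member's ratio. They therefore do not show how the tests behave with calf 3213 or with small ratios. The calf is the replicate number in each tissue because the same animal gave all 4, so the tissue test carries a block for it. The test between calves of 1 origin and the variants without calf 3213 were chosen after seeing the data. Standard errors and SDs of log2 values used a pseudocount of 0.5. Intervals of 95% from counts cover counting error only.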

Additional observations from a re-analysis of the deposited data

Results flagged for a closer look

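In the 48 IVP groups of 4 libraries examined for the first 12 members, 4 held a library far from the other 3, and chance flags about 1 in 20 groups. MOET groups were not examined because calf 3213 leaves 3 independent libraries. The member ranked 2 had 9.50 CPM in the hypothalamus of calf 3209 against 4.57 to 5.20 in the other IVP calves, a gap of 0.872 of the group's range. In the pituitary the same gene had 14.9 CPM in calf 3209 against 7.68 to 8.56, a gap of 0.879 of the range. The member ranked 6 had 6.86 CPM in the testicle of calf 3208 against 9.36 to 9.66 (0.893 of the range). The member ranked 10 had 5.02 CPM in the hypothalamus of calf 3208 against 5.74 to 5.83 (0.896 of the range).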

How the results depend on the processing

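Few choices returned the list whole. TMM-scaled totals returned 21 of the 60 members and median CPM 39; leaving out 1 calf returned 36 to 60, and the ranked genes lower in all 4 tissues then numbered 268 to 638. Of the 60 themselves, 55 to 60 stayed lower in all 4 tissues without 1 calf. In the origin test DESeq2 called 690 genes and 28 members lower in the hypothalamus and 152 genes in the testicle. With age as a covariate, which calf 3213 dominates, edgeR called 0 genes in the hypothalamus, where it called 1 without age. In the pituitary it then called 138 genes and 6 members (1230 and 28 without age). In the adrenal it called 1407 genes and 4 members (2863 and 8 without age). Without 1 calf, genes called lower numbered 0 to 24 (hypothalamus), 217 to 1515 (pituitary), 0 to 1 (testicle) and 1088 to 3964 (adrenal), and members 0 to 3, 9 to 29, 0 and 4 to 11. The causes were not tested.

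The test between calves called 56 ranked genes with calf 3213, 9 to 27 ranked genes and 1 to 3 members without 1 calf, and 11, 6, 9 and 9 ranked genes without the hypothalamus, pituitary, testicle or adrenal, with 1, 1, 1 and 2 members. Tissue counts changed little without the replicate block (22 members lower and 26 higher for hypothalamus, 41 and 11 for pituitary, 33 and 15 for testicle, 10 and 37 for adrenal). Birth weight gave 0 calls under every alternative run. Members whose IVP libraries all lay below MOET numbered 32 (hypothalamus), 31 (pituitary), 5 (testicle) and 8 (adrenal) on TMM-scaled totals, an alternative chosen after seeing the data. The held-out share with calf 3213 in, which has no share over ranked genes beside it, was 69.1% with TMM-scaled totals, against 70.6% on CPM. Of calf 3213's 240 values, 239 were nearer MOET on TMM-scaled totals. Counting error and the 3 independent MOET calves both limit comparisons of origin.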
